A study of Mus musculus with 24 samples.

Results

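Fibroblasts make the collagen-rich matrix around larger vessels and in the meninges, the membranes that cover the brain, while capillary endothelial cells sit on a basement membrane of other collagens and laminins. Type I collagen is a triple helix of chains from Col1a1 and Col1a2, type III collagen is built from Col3a1, and the proteoglycans decorin (Dcn) and lumican (Lum) bind such fibrils. Matrix genes of this kind are often read as a measure of fibroblasts left in a preparation of vessel cells, although mural cells (pericytes and smooth muscle) make several of the same proteins.

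By symbol, 10 genes were followed, namely Col1a1, Col1a2, Col3a1, Dcn, Lum, Pdgfra, Fbln1, Fbln2, Igf2 and Postn. They were chosen by symbol for what their levels may show of fibroblast content in each library, and Fbln2 was also selected on its lower level with basal sphingosine-1-phosphate (S1P), so that difference is described here with no test. The table of wild-type libraries held 8 of the 10 among its 18091 genes, and the table of libraries labelled knockout held 9 among its 18297. Igf2, a growth factor of fetal tissue and of meninges, had values in the knockout table only, and Lum had no value in either. Of the 8 in wild-type libraries, 7 had a mean of at least 10 normalized counts and were tested with 12249 genes in all. Dcn had a lower mean and was not tested.

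RNA came from MBMECs, which are primary microvascular endothelial cells isolated from mouse cortex and midbrain and kept on transwell inserts, where a compound can be given to the apical or to the basal side. The 24 libraries formed 6 groups of 4. C57B/6J cells received 500 nM of the S1P4 agonist CYM50260 on the apical or on the basal side, or 50 nM of S1P, a lipid with several G protein-coupled receptors, on the apical or on the basal side, and were harvested after 24 h. Vehicle-treated cells of the mouse strain labelled S1P4 KO/KO, which lack that receptor in all cells by the label, formed another group, and vehicle-treated C57B/6J cells were set against all of these. No source used here gives the age or sex of the mice. All groups shared the removal of the meninges before digestion, 48 h of puromycin against non-endothelial cells, and seeding 48 h before treatment. Each replicate was a pool of 12 mice by the series' design text, with 3 inserts pooled per library, so values are averages over mice and over any cell types that remained.

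Values are the whole numbers deposited per gene and library, called normalized counts here, and what was done to make them is not fully known. High values were compressed in the wild-type table relative to the other. Genes with a knockout mean of 100 to 300 had a median of 116 in wild-type vehicle, while those at 10000 to 30000 had a median of 1546 there. Levels, ratios and ranges of abundant genes in wild-type libraries are therefore given as deposited, and they may be understated. The wild-type libraries summed to 4.49 to 4.72 M and those labelled knockout to 17.4 to 17.8 M, and the tables may have been normalized separately. No source used here ties libraries to separate pools of mice, so a p-value covers the spread of these libraries alone. S1pr4, the gene of the targeted receptor, was at 250, 261, 349 and 260 in the libraries labelled knockout, against 128, 130, 189 and 153 in wild-type vehicle, so RNA of the gene was counted in all of them. No source used here names the deleted part of the gene, so these values do not check the label. Xist, an RNA made by female cells, was at 0 or 1 in all 5 wild-type libraries numbered 1, and 4 libraries stood apart from others of their number. Among libraries numbered 2, apical agonist had 1382 and basal S1P 552, against 2251 to 2555 in the other 3. The apical S1P library numbered 3 had 525, against 1063 to 1608, and that numbered 4 had 1417, against 173 to 244. Results are given below with and without these 4 where they rest on them. Without them apical S1P keeps replicates 1 and 2 alone, and apical agonist and basal S1P keep 1, 3 and 4. Vehicle and basal agonist keep all of theirs, so the groups then differ in the replicate numbers they hold.

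The genes that mark fibroblasts most closely were at or near the floor. Dcn was at 1 to 13 normalized counts across the 20 wild-type libraries, Pdgfra at 12 to 41, and Lum had no value. Among 28 other fibroblast genes, Dpt, Mfap4, Mfap5 and Itgbl1 had no value, and Islr, Pdgfrl and Svep1 were at 0 to 7. Of 24 meningeal genes, Slc6a13, Slc47a1 and Crabp2 had no value and Aldh1a2 was at 0 to 5, while the transcription factor Foxc1 was at 342 to 569. The 10 genes are therefore called matrix and fibroblast genes here by their list, not as evidence of a cell type. In bulk RNA, fewer cells of a type and less RNA per cell cannot be told apart.

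RefSeq promoter windows (GRCm38.p6, the mm10 assembly) were matched for 7 of the 10 genes. Those of Col3a1 and Postn are shown because both lie outside every annotated exon of GENCODE M21. A further reason is that the log2 levels of these genes varied together over the wild-type libraries (r = 0.940 over 20 libraries, whose pools may be shared, a description). Each is the 250 bases before the RefSeq start of the gene, 5′ to 3′ on its own plus strand, with the TATA box letters TATAAA in capitals. The Col3a1 window is chr1:45311288-45311537 and the Postn window is chr3:54360857-54361106.
Col3a1: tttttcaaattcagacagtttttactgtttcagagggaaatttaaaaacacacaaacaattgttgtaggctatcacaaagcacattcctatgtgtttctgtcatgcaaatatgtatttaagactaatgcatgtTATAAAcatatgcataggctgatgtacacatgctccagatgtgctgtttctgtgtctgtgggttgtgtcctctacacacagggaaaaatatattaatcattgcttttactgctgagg
Postn: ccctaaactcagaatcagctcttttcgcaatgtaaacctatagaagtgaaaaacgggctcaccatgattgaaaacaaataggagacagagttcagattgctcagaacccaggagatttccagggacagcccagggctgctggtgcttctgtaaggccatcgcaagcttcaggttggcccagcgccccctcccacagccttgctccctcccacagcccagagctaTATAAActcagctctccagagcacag
TATAAA began 26 bases before the start in Postn and 117 bases before it in Col3a1. Besides TATAAA, the CCAAT box (letters CCAAT) and the GC box (letters GGGCGG) were searched for, all on both strands. Among 32817 promoter windows of the same length 12.4% held TATAAA, 33.8% the CCAAT box and 32.7% the GC box. Fbln1, Pdgfra and Igf2 windows held none of these motifs. The windows of Fbln2 and Col1a2 belong to RefSeq starts inside the genes as GENCODE M21 places them, with 250 and 127 of their bases in exons. Before those starts, Fbln2 held 1 GC box at 16 bases, and Col1a2 held 1 CCAAT box at 109 bases and GC boxes at 188 and 205 bases. A match describes the letters in the window and says nothing of a factor bound there.

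Per kilobase of exon, the scale on which levels of different genes were set side by side as deposited, the fibulins stood above the collagens. Mean normalized counts per kilobase over the 20 wild-type libraries were 95.3 for Fbln2 and 51.4 for Fbln1, at percentiles 80.3 and 64.9 of all genes. Col1a1 averaged 20.7 per kilobase, Col3a1 18.6 and Col1a2 8.33, at percentiles 47.4, 46.1 and 37.0. Postn, Pdgfra and Dcn were lower still, at 3.06, 2.21 and 1.15 per kilobase. The order of the collagens depends on the union of annotated exons, 6563 bases for Col1a1, 9816 for Col3a1 and 12426 for Col1a2. The highest library exceeded the lowest 157-fold for Col1a1, 23.9-fold for Col1a2 and 14.6-fold for Col3a1, against 6.33-fold for Fbln2, 3.42-fold for Pdgfra and 2.65-fold for Fbln1.

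Col1a1 (ENSMUSG00000001506, chromosome 11, 94936224 to 94953042, plus strand), which encodes the alpha-1 chain of type I collagen, was high in every library numbered 1 or 2 and low in most numbered 3 or 4. Replicates 1 to 4 held 168, 314, 6 and 17 normalized counts with apical agonist, 257, 212, 24 and 2 with basal agonist, 264, 248, 264 and 16 in cells given apical S1P, and 210, 216, 15 and 23 with basal S1P. Vehicle held 167, 260, 12 and 16. The exception was S1P apical replicate 3, at 264 where the other libraries of that number held 6 to 24, and it is among the libraries that stood apart by Xist. Every group thus spanned a range that overlapped all the others.

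Col1a2 (ENSMUSG00000029661, chromosome 6, 4504814 to 4541544, plus strand), the partner chain of type I collagen, had the same arrangement with a narrower range. It was at 135, 185, 52 and 13 with apical agonist, 147, 164, 35 and 8 with basal agonist, 169, 147, 148 and 36 in cells given apical S1P, 181, 145, 54 and 14 with basal S1P, and 191, 163, 52 and 30 in vehicle. In 4 of the 5 groups number 3 stood between number 4 and the other two, the exception being apical S1P. The ratio of Col1a1 to Col1a2 per exonic base was 1.66 to 3.31 in the libraries numbered 1 and 2.45 to 3.21 in those numbered 2, against 0.219 to 3.38 and 0.473 to 3.11 in those numbered 3 and 4. Of 10 libraries numbered 3 or 4, 5 had a ratio above 1, with vehicle replicate 4 at 1.01. The exonic bases are the union of all annotated exons, 6563 for Col1a1 and 12426 for Col1a2. Whether a ratio exceeds 1 depends on these lengths, so it is not set against the proportion of the chains in protein. Ratios in numbers 3 and 4 also rest on values as low as 2 for Col1a1 and 8 for Col1a2.

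Col3a1 (ENSMUSG00000026043, chromosome 1, 45311538 to 45349706, plus strand), which encodes the chain of type III collagen, was at 267, 309, 26 and 50 with apical agonist and 268, 291, 48 and 44 with basal agonist. With apical S1P it was at 357, 324, 299 and 36, with basal S1P at 250, 225, 55 and 35, and in vehicle at 265, 380, 70 and 43. Again S1P apical replicate 3 was alone in its number in being high, at 299 against 26 to 70.

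Postn (ENSMUSG00000027750, chromosome 3, 54361109 to 54391037, plus strand) encodes periostin, a matricellular protein that fibroblasts secrete during repair. It was at 38, 65, 1 and 8 with apical agonist, 37, 61, 1 and 1 with basal agonist, 58, 71, 26 and 0 in cells given apical S1P, 37, 18, 6 and 6 with basal S1P, and 37, 53, 6 and 2 in vehicle. Its values below about 10 rest on few counts, and its highest value in number 3 was again in S1P apical replicate 3.

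**Figure D1:**
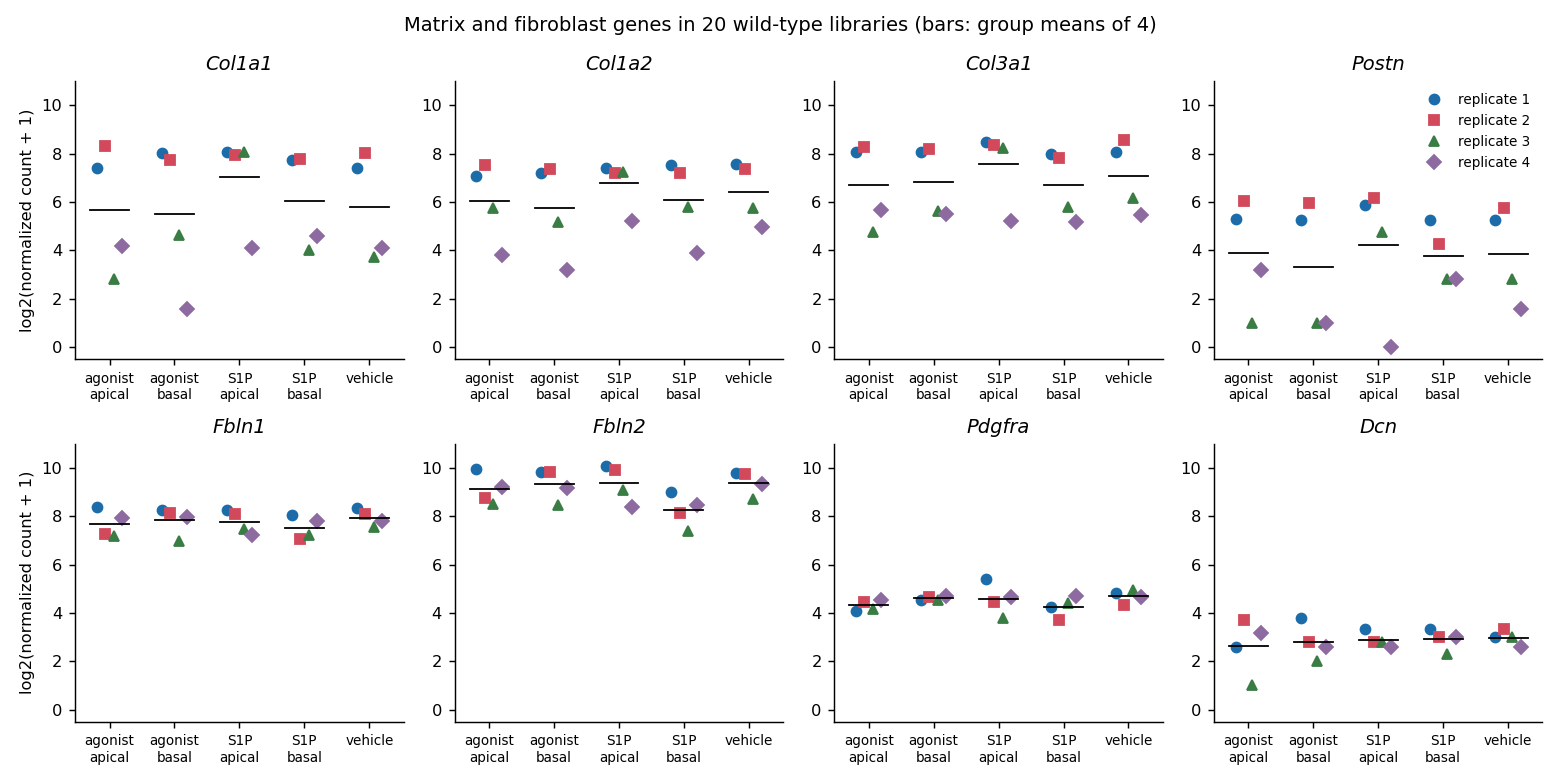
Each panel plots 1 gene as log2(normalized count + 1) in the 20 wild-type libraries, 4 per group, with colour and shape giving the replicate number and black bars the mean of the log2 values. The 3 collagen genes and Postn are high in replicates 1 and 2 and lower in 3 and 4, except that replicate 3 of apical S1P is high too, while Fbln2 is lower in the S1P basal group and Pdgfra and Dcn stay at 12 to 41 and 1 to 13 normalized counts.

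Replicate number accounted for most of the spread of these 4 genes. It held 85.9% of the sum of squares of log2(normalized count + 1) for Col1a2, 80.8% for Col3a1, 75.6% for Postn and 75.4% for Col1a1, against 6.3%, 5.6%, 2.1% and 6.4% for the treatment group. Over all 12249 genes tested the medians were 42.9% between numbers and 13.9% between groups. The SDs of the 4 genes were 1.42 to 2.20 on the log2 scale, at percentiles 99.6 to 100 of all genes, where the median gene had 0.18. Genes outside the list varied likewise, and 19 tested fibroblast genes outside the list had a median of 71.3% between numbers and 9 tested pericyte genes 84.8%, against 31.1% for 16 endothelial genes.

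Summed over Col1a1, Col1a2, Col3a1 and Postn, libraries numbered 1 held 608 to 848 normalized counts, those numbered 2 held 604 to 873, and those numbered 4 held 55 to 91. Number 3 held 85 to 737, with the top value in S1P apical replicate 3. The summed level of 11 pericyte markers moved with it, at 2265 to 2971, 1682 to 2349, 1018 to 1864 and 285 to 978 in numbers 1 to 4. By group, that pericyte sum ranged over 415 to 2628 with apical agonist, 285 to 2265 with basal agonist, 978 to 2971 with apical S1P, 322 to 2419 with basal S1P, and 332 to 2958 in vehicle. Smooth muscle markers summed to 5301 to 5956, 5609 to 5816, 4536 to 5458 and 4170 to 4745 in numbers 1 to 4, and the 12 tested had a median of 65.2% between numbers. Among them Myh11, smooth muscle myosin, was at 22 to 451 with 83.7% between numbers and Des, desmin, at 19 to 303 with 85.4%. Endothelial markers summed to 29536 to 35749 over the 20 libraries. The part of these cell type markers in the collagen levels was not tested.

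**Figure D2:**
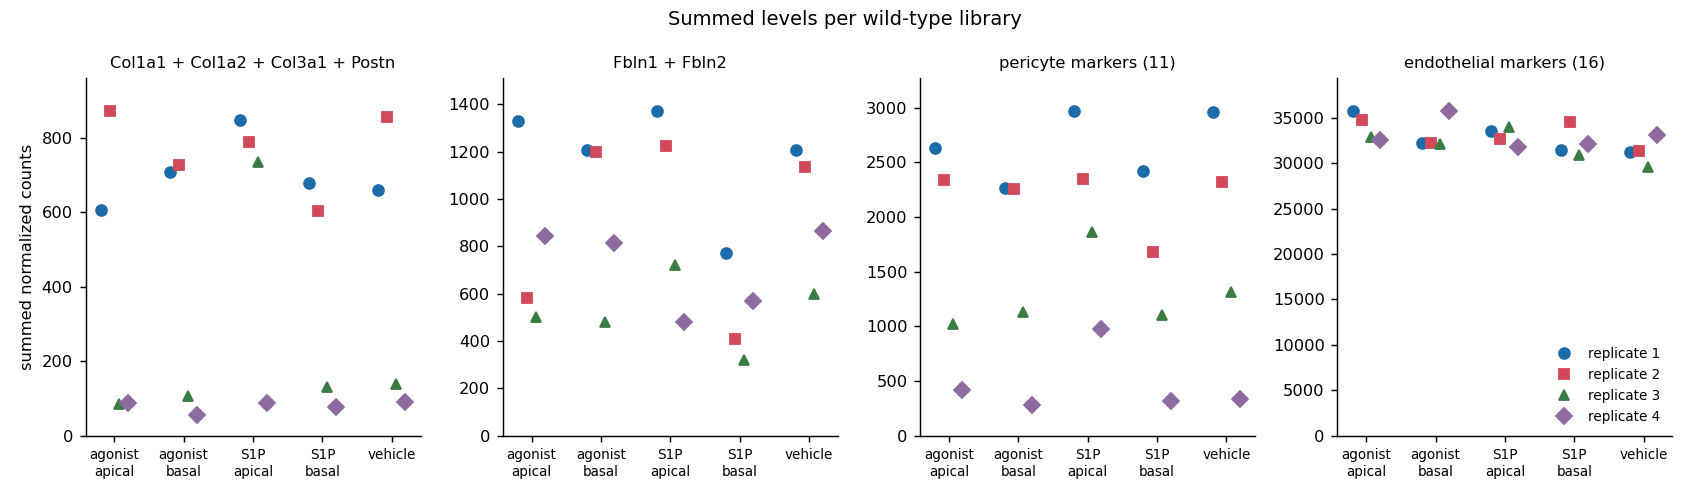
Summed normalized counts per wild-type library are plotted for 4 listed genes (Col1a1, Col1a2, Col3a1 and Postn), for both fibulins, for 11 pericyte markers and for 16 endothelial markers, with groups along the x axis and replicate number as colour and shape. The collagen and pericyte sums fall into levels by replicate number, the fibulin sum has its lowest median in the S1P basal group, and the endothelial sum stays between 29536 and 35749.

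The fibulins followed replicate number less closely than the collagens. Fbln1 (ENSMUSG00000006369, chromosome 15, 85205949 to 85286535, plus strand) encodes fibulin-1, a secreted glycoprotein of basement membranes and elastic fibres. Its normalized counts were 331, 152, 143 and 243 with apical agonist, 306, 282, 125 and 247 with basal agonist, 302, 272, 177 and 147 in cells given apical S1P, 263, 132, 149 and 222 with basal S1P, and 320, 271, 186 and 224 in vehicle. The 4 libraries unlike their number by Xist included 3 of the low ones, at 152, 132 and 147 in agonist apical replicate 2, S1P basal replicate 2 and S1P apical replicate 4.

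Fbln2 (ENSMUSG00000064080, chromosome 6, 91212455 to 91272540, plus strand), which encodes fibulin-2, a protein of elastic fibres and of vessel and valve matrix, was the highest of the listed genes. It was at 997, 431, 359 and 599 with apical agonist, 902, 916, 355 and 569 with basal agonist, and 1070, 953, 544 and 332 in cells given apical S1P. With basal S1P it was at 508, 277, 169 and 349, against 889, 863, 414 and 641 in vehicle. Each basal S1P library was below the vehicle library of its number, at 57.1%, 32.1%, 40.8% and 54.5% of it. Of all genes, 11.5% were likewise lower in all 4 numbers. The numbers are not known to pair these libraries, and S1P basal replicate 2, at 32.1%, was unlike its number by Xist. The ranges of the groups overlapped, because the basal S1P library numbered 1 exceeded the vehicle library numbered 3.

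The mean of Fbln2 with basal S1P was 326 ± 142 against 702 ± 222 in vehicle (SD, n = 4 each), a difference of -1.15 ± 0.42 on the log2(normalized count + 1) scale (SE of the limma fit). Against apical S1P, with 725 ± 346, it was -1.12 ± 0.42. These differences are descriptions, since Fbln2 was listed for them. Leaving out the 4 libraries unlike their number by Xist gave -1.11 ± 0.43 against vehicle and -1.70 ± 0.51 against apical S1P. The latter rests on S1P apical replicates 1 and 2 alone. Against vehicle, dropping any single library of basal S1P or vehicle gave -1.40 to -0.87. For the other treatments the Fbln2 differences from vehicle were -0.28 ± 0.42 for apical agonist (adjusted p = 1 by limma), -0.07 ± 0.42 for basal agonist (adjusted p = 1) and -0.04 ± 0.42 for apical S1P (adjusted p = 1).

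Fbln1 and Fbln2 varied together over the wild-type libraries (root mean square difference of centred log2 profiles 0.394, r = 0.864 over 20 libraries, whose pools may be shared, given as a description). Their ratio per exonic base set basal S1P apart. Fbln2 over Fbln1 was 1.32, 1.44, 0.778 and 1.08 in S1P basal replicates 1 to 4, and 1.53 to 2.43 in the other 16 wild-type libraries. The libraries labelled knockout held 1.85 to 2.16. The ratio was therefore lower in all 4 basal S1P libraries than in any other library of the series. It was computed after the levels had been seen and uses the same Fbln2 values that put the gene on the list, so it has no test.

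**Figure D3:**
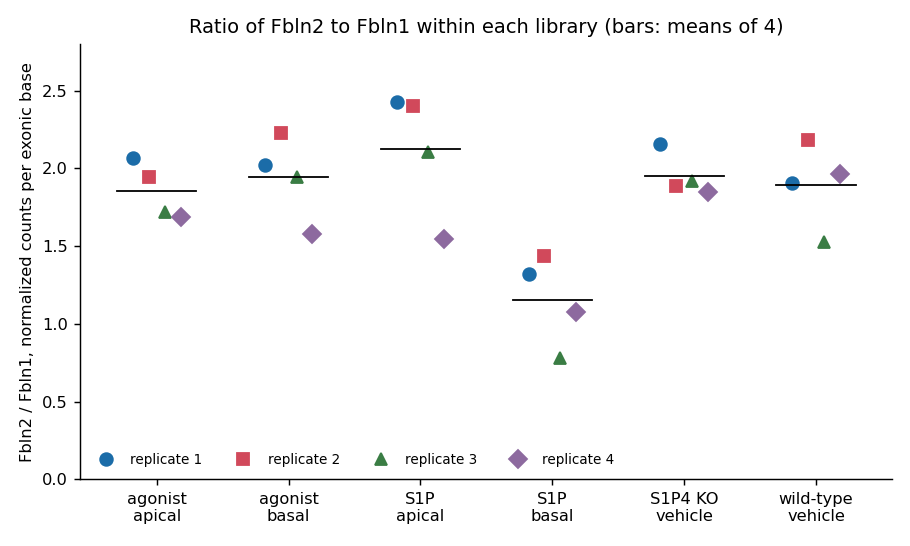
The ratio of Fbln2 to Fbln1, in normalized counts per exonic base, is plotted for every library, with groups along the x axis, replicate number as colour and shape, and bars at the mean of 4. The S1P basal libraries sit at 0.778 to 1.44, below the 1.53 to 2.43 of the other wild-type libraries and the 1.85 to 2.16 of those labelled knockout.

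Pdgfra (ENSMUSG00000029231, chromosome 5, 75152292 to 75198215, plus strand), the receptor for platelet-derived growth factor A chain on fibroblasts and glial precursors, was low throughout. It was at 16, 21, 17 and 22 with apical agonist, 22, 24, 22 and 25 with basal agonist, 41, 21, 13 and 24 in cells given apical S1P, 18, 12, 20 and 25 with basal S1P, and 27, 19, 30 and 24 in vehicle. Replicate number held 15.0% of its sum of squares and treatment group 20.5%. Its profile was not like that of the collagens, with r from -0.221 to -0.144 against Col1a1, Col1a2 and Col3a1 over the 20 libraries. Dcn (ENSMUSG00000019929, chromosome 10, 97479609 to 97518143, plus strand), decorin, averaged 6.5 to 7 in each of the 5 wild-type groups.

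No listed gene tested passed the threshold in any of the 5 wild-type comparisons, an adjusted p under 0.05 by limma over 12249 genes, with Fbln2 left aside for basal S1P. As background, 0.0245% of genes were called for basal S1P against vehicle, 0.0245% for basal against apical S1P, and 0% for apical S1P, apical agonist and basal agonist against vehicle. At an unadjusted p under 0.05 the shares of all genes were 5.22%, 4.01%, 0.996%, 1.09% and 0.31% in that order, and no listed gene tested was among them. With replicate number as a block the 3 genes called in each of the basal S1P comparisons became 47 against vehicle and 83 against apical S1P, and 518 and 271 when the 4 libraries unlike their number by Xist were also left out, though the numbers were not treated as pairing these libraries. The SE of a difference was 0.99 to 1.53 on the log2 scale for the 3 collagens and Postn, against 0.28 to 0.42 for Pdgfra, Fbln1 and Fbln2.

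Fbln2 was selected on its lower level with basal S1P, so it is left out of the count here. Of the other 6 tested genes, 5 had a lower mean log2 value with basal S1P than in vehicle, and the median difference was -0.34, against 0.00 over all genes. With 1 library left out that median ran from -0.62 to 0.20, and it was above 0 without S1P basal replicate 4, vehicle replicate 1 or vehicle replicate 2. Fbln1 averaged 192 ± 61.6 with basal S1P and 250.2 ± 58.1 in vehicle (SD, n = 4 each), a difference of -0.41 ± 0.32 (adjusted p = 0.756), or -0.25 ± 0.32 without the 4 libraries unlike their number by Xist. Col3a1 averaged 141 ± 112 against 189.5 ± 161, a difference of -0.37 ± 0.99 (adjusted p = 0.915). Both were below vehicle in all 4 replicate numbers, as were 11.5% of all genes. Pdgfra was 18.8 ± 5.38 against 25.0 ± 4.69, at -0.42 ± 0.28 (adjusted p = 0.756), and Col1a1 was 116 ± 112 against 114 ± 121, at 0.21 ± 1.53 (adjusted p = 0.972).

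The same 6 genes had a negative difference for basal minus apical S1P, with a median of -0.54 against 0.00 over all genes. That median was -1.84 without the 4 libraries unlike their number by Xist and 0.02 without them and with replicate number as a block. In both, only S1P apical replicates 1 and 2 remain, which had high collagen values, against S1P basal replicates 1, 3 and 4. The -1.84 thus compares groups of unlike replicate numbers. With 1 library left out the median ran from -1.42 without S1P apical replicate 4 to -0.26 without S1P apical replicate 1. Col3a1 was lower in all 4 replicate numbers, as were 4.44% of all genes, with means of 141 ± 112 for basal S1P and 254 ± 147 for apical S1P, a difference of -0.87 ± 0.99 (adjusted p = 0.999). Col1a1 was at 116 ± 112 against 198 ± 122, at -1.02 ± 1.53 (adjusted p = 0.999). Without S1P apical replicate 3 the differences were -0.65 and -0.68.

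For apical S1P against vehicle the median over the 7 genes was 0.35. It ran from -0.21 without S1P apical replicate 1 to 0.87 without S1P apical replicate 4 when 1 library was left out, and it was 0.17 without S1P apical replicate 3, the library that stood apart by Xist and by its collagen values. It was also below 0 without S1P apical replicate 2 and without vehicle replicate 4, at -0.07 and -0.12, and was 0.01 without vehicle replicate 3. Without the 4 libraries unlike their number by Xist it was 0.90, with 0 of the 7 genes lower. That sets S1P apical replicates 1 and 2 alone, both of high collagen values, against all 4 vehicle libraries, so replicate numbers were not balanced. Without the 4 and with replicate number as a block the median was 0.11, with 2 lower. Col1a1 was at 198 ± 122 with apical S1P and 114 ± 121 in vehicle, a difference of 1.23 ± 1.53 (adjusted p = 1), which was 0.90 without S1P apical replicate 3 and 0.16 ± 0.55 when the 4 libraries unlike their number were left out and replicate number was a block. Col3a1 was at 254 ± 147 against 189.5 ± 161, at 0.51 ± 0.99 (adjusted p = 1). Fbln1 was at 225 ± 74.2 against 250.2 ± 58.1, at -0.19 ± 0.32 (adjusted p = 1). The comparisons with vehicle share the same 4 vehicle libraries.

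With the S1P4 agonist no listed gene passed the threshold on either side. With apical agonist the median difference of the 7 genes was -0.28, or -0.70 to -0.03 with 1 library left out. Without the 4 libraries unlike their number by Xist it was -0.70, with all 7 lower, and -0.29 with replicate number as a block as well. Of those 4 only agonist apical replicate 2, of a number with high collagen values, is in this comparison. All vehicle libraries remain, so replicate numbers were not balanced. With all libraries kept, single genes ranged between -0.37 ± 0.28 for Pdgfra and 0.03 ± 1.46 for Postn. With basal agonist the median was -0.22, or -0.75 to 0.18 with 1 library left out, being above 0 without vehicle replicate 1 or 2 or agonist basal replicate 3 or 4, and the values ran from -0.68 ± 0.99 for Col1a2 to -0.07 ± 0.42 for Fbln2. All adjusted p-values of the listed genes in both comparisons were 1.

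**Figure D4:**
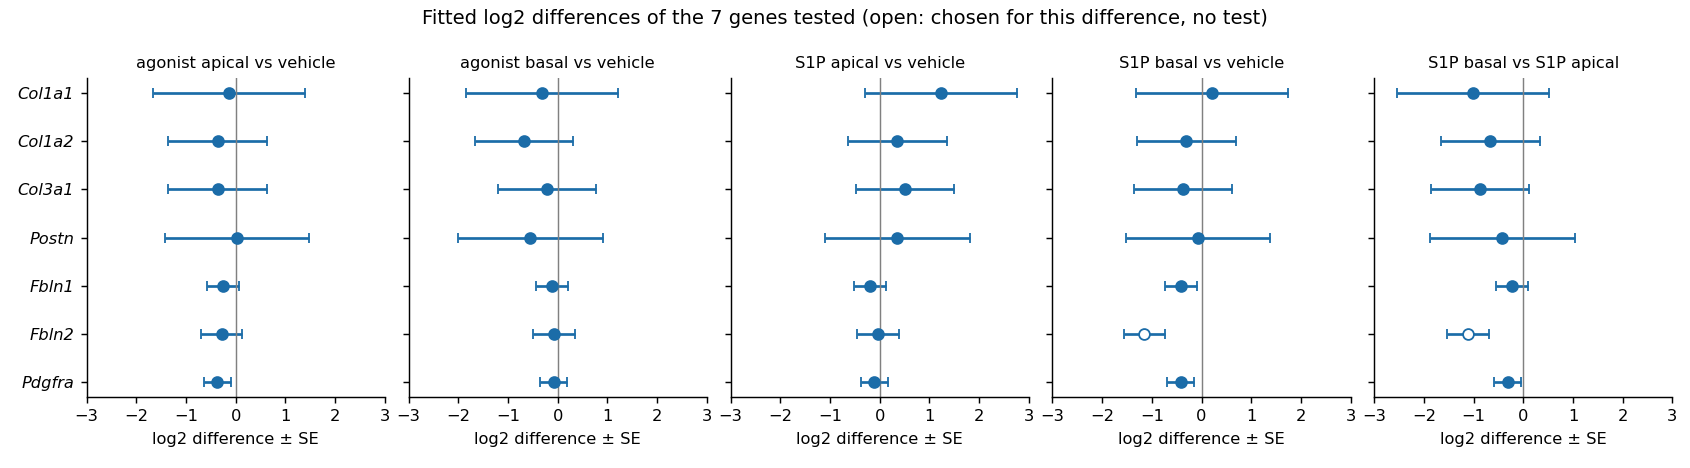
Points give the fitted log2 difference of each of the 7 tested genes in the 5 wild-type comparisons, and bars the SE of the limma fit. Open points mark Fbln2 in the basal S1P comparisons, which have no test, and the bars of Col1a1, Col1a2, Col3a1 and Postn are far wider than those of Fbln1, Fbln2 and Pdgfra.

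As deposited, the libraries labelled knockout had lower means for the collagens and Postn and higher means for the fibulins. The median shared gene was also higher on that scale. Col1a1 was at 17, 0, 2 and 9 normalized counts in libraries labelled knockout, against 167, 260, 12 and 16 in wild-type vehicle. Col1a2 was at 14, 20, 10 and 11 against 191, 163, 52 and 30, and Col3a1 at 64, 54, 35 and 47 against 265, 380, 70 and 43. Postn was at 8, 4, 6 and 2 against 37, 53, 6 and 2. As deposited, the groups overlapped for Col1a1, Col3a1 and Postn, and for Col1a2 they did not. Overlap depended on the scale. Per M of the library total, Col1a1 was at most 0.969 in libraries labelled knockout and at least 2.67 in vehicle. Col3a1 was at most 3.65 and at least 9.24. The share of all genes whose groups do not overlap was not computed, so this is a description.

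Fbln1 was higher as deposited, as the median shared gene was. It was at 427, 554, 548 and 317 in libraries labelled knockout and 320, 271, 186 and 224 in wild-type vehicle. Fbln2 was at 1344, 1524, 1534 and 853 against 889, 863, 414 and 641. Igf2 (ENSMUSG00000048583, chromosome 7, 142650766 to 142666816, minus strand) was at 29, 31, 24 and 46. Pdgfra was at 27, 21, 27 and 28 against 27, 19, 30 and 24, and Dcn at 5, 4, 8 and 6 against 7, 9, 7 and 5.

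Because the tables may have been normalized separately, they were not tested against each other, and the direction was read on 2 scales. Of 16765 shared genes, 12226 had a vehicle mean of at least 10. Over these the median log2 ratio of libraries labelled knockout to wild-type vehicle was 0.95 as deposited and -0.98 per M of the library total. Per M, Fbln1 averaged 26.3 ± 6.63 in libraries labelled knockout and 54.6 ± 12.5 in vehicle, and Fbln2 74.9 ± 18.7 and 153 ± 48.0 (SD, n = 4 each). The fibulins thus turned direction with the scale, as the median shared gene did, and neither direction is particular to them. Col1a1 averaged 0.397 ± 0.438 against 24.9 ± 26.5 per M, Col1a2 0.784 ± 0.265 against 23.8 ± 17.4, Col3a1 2.85 ± 0.704 against 41.4 ± 35.2 and Postn 0.285 ± 0.148 against 5.36 ± 5.38. These 4 had the lower mean on both scales, as did 5.96% of 12226 shared genes with a vehicle mean of at least 10, and Dcn was lower on both scales too. Pericyte markers summed to 440 to 1212 in libraries labelled knockout and 332 to 2958 in wild-type vehicle as deposited. Genotype and the preparation of these cells cannot be told apart.

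**Figure D5:**
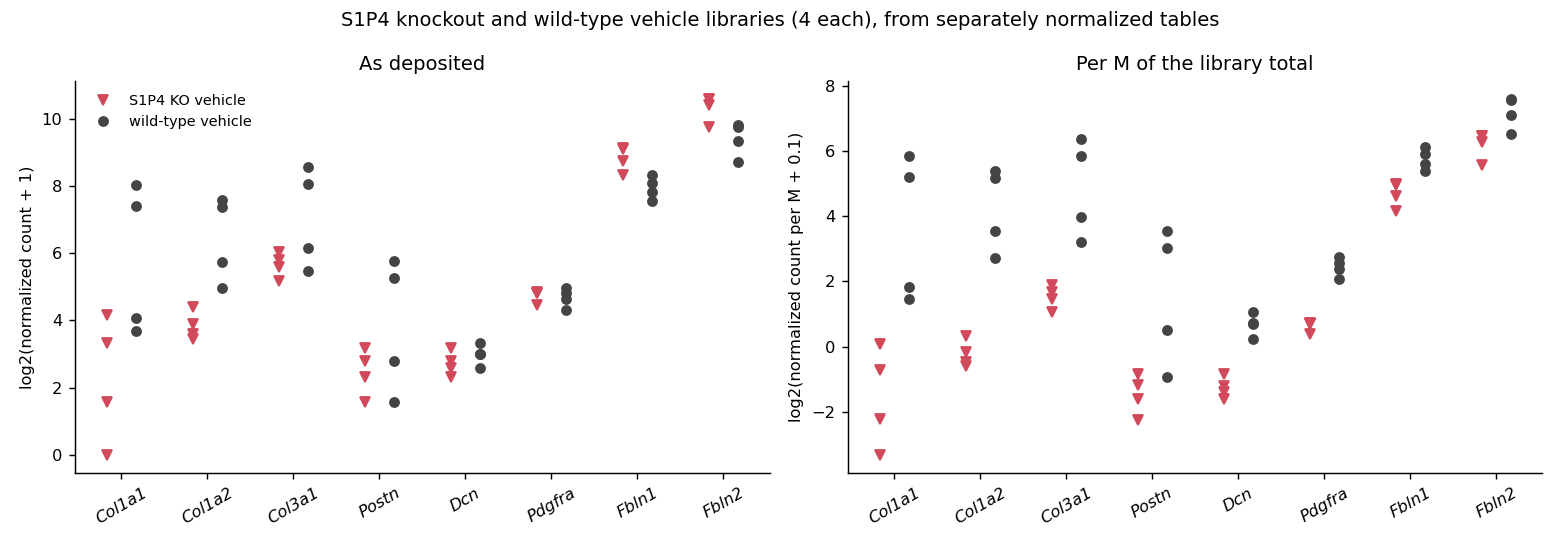
Libraries labelled S1P4 knockout (triangles) and wild-type vehicle (circles), 4 each, are plotted as log2(normalized count + 1) on the left and as log2(normalized count per M of the library total + 0.1) on the right. Col1a1, Col1a2, Col3a1 and Postn are lower in libraries labelled knockout on both scales by their means. Fbln1 and Fbln2 are higher on the left and lower on the right, as the median shared gene is.

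Neighbouring parts of the matrix were measured through 19 lists with 233 genes, of which 198 had a value and 144 were tested. None of the 144 passed the threshold in any of the 5 comparisons. Over the 13 lists with at least 3 tested genes, medians for basal S1P against vehicle lay between -0.37 for pericyte markers and 0.09 for matricellular proteins, and for basal against apical S1P between -0.80 for pericyte markers and 0.05 for mesenchymal transition factors. The pericyte list was also highest for apical S1P against vehicle, at 0.55. These list medians include the 4 libraries unlike their number by Xist and were not refitted without them. One of the 4, S1P apical replicate 4, had a pericyte sum of 978, against 285 to 415 in the other libraries numbered 4. For apical agonist the medians ran from -0.13 for other fibroblast genes to 0.13 for endothelial markers, and for basal agonist from -0.25 for pericyte markers to 0.07 for endothelial markers.

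Other fibrillar collagen genes differed from each other in spread. Col5a2, a chain of type V collagen, was at 1711 to 2451 in every wild-type library, with 46.4% of its sum of squares between numbers, while its partner Col5a1 was at 22 to 221 with 83.8% and Col5a3 at 41 to 232 with 87.4%. The 4 tested genes of this list had a median of 0.00 for basal S1P against vehicle, with 2 higher and 2 lower. Col6a1, Col6a2 and Col6a3 of type VI collagen ranged over 15 to 258, 14 to 273 and 6 to 257, with 91.1%, 91.6% and 78.9% between numbers. Col8a1 of type VIII collagen, made by vessel cells, was at 811 to 1390, and Col12a1, which binds fibrils, at 110 to 684. The secreted glycoprotein gene Fstl1 was at 1329 to 1794.

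Collagen-processing genes ranged from steady to widely spread, and the 24 tested had a median of 61.0% between numbers, against 42.9% over all genes. The procollagen proteinase gene Adamts2 was at 12 to 278 with 90.4% between numbers, Tll1, of the tolloid proteinases, at 19 to 443 with 74.6%, and Pcolce, an enhancer of procollagen cleavage, at 6 to 72 with 80.0%. The genes of highest mean had narrower ranges, in the part of the table where values are compressed. Serpinh1, the collagen chaperone, was at 1143 to 1666, Colgalt1, a collagen galactosyltransferase, at 1165 to 1537, and the lysyl hydroxylases Plod1 and Plod3 at 1012 to 1193 and 762 to 948. The 24 tested genes had a median difference of 0.04 for basal S1P against vehicle, with 14 higher and 10 lower. Of the small leucine-rich proteoglycans, the family of decorin and lumican, Bgn was at 535 to 1078, Ecm2 at 198 to 375, Tsku at 101 to 217 and Prelp at 3 to 58, and the 4 had a median of -0.15.

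Among elastic fibre genes other than the listed fibulins, Ltbp4 was at 1806 to 2730, Fbn1, fibrillin-1, at 658 to 1221, Fbln5 at 578 to 874 and Ltbp3 at 325 to 617. For basal S1P against vehicle 10 of the 12 tested had a lower mean log2 value and the median was -0.16. Fbn1 averaged 887 ± 194 with basal S1P and 1068 ± 103 in vehicle, a difference of -0.29 ± 0.16 (adjusted p = 0.756), and Fbln5 734 ± 114 and 781 ± 36.3, a difference of -0.10 ± 0.10 (adjusted p = 0.775).

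In the platelet-derived growth factor family, the ligand genes Pdgfb, Pdgfd and Pdgfa were at 1469 to 1988, 573 to 911 and 227 to 378. The receptor gene Pdgfrb, of mural cells, was at 52 to 582 with 84.8% between numbers, and the 5 tested genes had a median of 0.01 for basal S1P against vehicle. Of the insulin-like growth factor genes, Igf1r was at 1441 to 1962, Igf2r at 1199 to 1719 and Igfbp3 at 1101 to 1625, and the 10 tested had a median of -0.10. The matricellular and adhesive genes Fn1, Thbs1, Tnc and Sparc were at 5967 to 8189, 2031 to 3862, 1475 to 2684 and 1531 to 2109. Tnc, tenascin-C, averaged 2459 ± 324 with basal S1P and 1798 ± 145 in vehicle, a difference of 0.44 ± 0.14, higher in all 4 replicate numbers as 13.3% of all genes were, and it did not pass the threshold (adjusted p = 0.756).

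Markers of other cell types were mixed in level, with many at or near the floor and some well above it. The astrocyte genes Gfap and Aqp4 were at 0 to 5 and 0 to 4 in the wild-type libraries, the oligodendrocyte gene Mbp at 0 to 3, and Ptprc, of leukocytes, at 0 to 12. Of the same lists, Aldh1l1 was at 54 to 117, Cnp at 311 to 415 and Cd68 at 30 to 69. Mrc1, of border macrophages, was at 3 to 42 and Ttr, of choroid plexus, at 0 to 67. Tubb3, a tubulin of neurons, was at 72 to 327, Stmn2 at 75 to 232, and Krt19, an epithelial keratin, at 0 to 56.

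The genes nearest to the mean profile of the 7 tested genes were ranked by the root mean square difference of centred log2 values over the 20 wild-type libraries. The 10 nearest were Angptl2 at 0.289, Aoc3 at 0.314, Col5a1 at 0.358, Syt9 at 0.408, Fgfr2 at 0.419, Atad5 at 0.420, Cysltr1 at 0.430, Atp1b2 at 0.434, Ptpru at 0.440 and Map1a at 0.441. The listed genes themselves lay at 0.423 for Col3a1, 0.678 for Col1a2, 0.772 for Fbln2, 0.863 for Fbln1, 1.03 for Postn, 1.12 for Pdgfra and 1.19 for Col1a1. The mean profile thus lay closer to Angptl2 than to any of the genes it was made from.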

How the data were processed

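Per the submitters' processing notes, the tools were STAR 2.7.3a, Trimmomatic 0.38, FastQC, DESeq2 1.26.0 and featureCounts 1.6.5 (Subread) on the mm10 build, with neither role nor order stated. No source used here gives the strand setting of the counting. Wild-type libraries and those labelled knockout have separate tables. The deposited signal of each gene is a whole number, called a normalized count here, with nearly equal totals within each table. No source used here says how the authors made it. Abundant genes are compressed in the wild-type table relative to the other (maximum 8346, against 266381), which 1 factor per library cannot give, so no test was made between tables.

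The 20 wild-type libraries were fitted together in R 4.3.3 by limma 3.58.1, with group means of log2(value + 1) and a mean-dependent prior variance. Genes with a mean of at least 10 were tested (12249), with Benjamini-Hochberg adjustment and calls at an adjusted p under 0.05, two-sided. Fold changes on this scale understate those of low genes. Sums of squares, ratios and profiles were computed with Python 3.11.15, pandas 2.3.3 and numpy 2.4.6. Levels per kilobase and ratios per exonic base used the union of all GENCODE M21 exons of a gene, so they depend on which exons are annotated. The fit and the shares were tested on simulated data. For the fit these data held no spread shared by replicate number, so they do not check it under such spread. The genes described and the 19 gene lists were chosen with earlier results of these data known. Named genes were the 10 listed, list genes past the threshold, up to 4 of the highest mean in each list, and the 10 nearest by profile. Other list genes named beside these (such as Col6a1) were chosen after their values were seen.

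Whether equal replicate numbers mark a shared pool is not stated. The correlation of deviations from the group mean between equal numbers was 0.43 to 0.78 for apical agonist with vehicle, 0.72 to 0.77 for basal agonist and 0.38 to 0.66 for apical S1P, over 0.1 in every pair. For basal S1P with vehicle it was 0.03 to 0.81 and for basal with apical S1P -0.34 to 0.73, so those were not treated as paired. No call changed with the replicate number as a block in the comparisons whose pairs were all over 0.1. That limit does not establish pairs. S1P apical replicate 4 was most like vehicle replicate 3, and the reverse held too. Vehicle replicate 2 was most like agonist apical replicate 1. S1P apical replicates 3 and 4 and agonist apical replicate 2 were also unlike their number by Xist. Only with basal agonist was every library most like the vehicle library of its own number, and the reverse.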

Additional observations from a re-analysis of the deposited data

Results flagged for a closer look

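Among 49 sets of 4 libraries (each listed gene in each group), 3 had a single library set apart from the other 3 by more than Dixon's 95% limit, and chance alone flags about 1 in 20 such groups. Col1a1 in S1P apical replicate 4 was at 16 normalized counts, against 248 to 264 in replicates 1 to 3. Col1a2 was at 36 in the same library, against 147 to 169. Replicate 3 of apical S1P was at 264 for Col1a1 and 148 for Col1a2, against 6 to 24 and 35 to 54 in replicate 3 of the other wild-type groups. Pdgfra in the library labelled S1P4 knockout replicate 2 was at 21, against 27 to 28 in the other 3.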

How the results depend on the processing

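No listed gene tested passed the threshold under any alternative, with Fbln2 left aside for basal S1P, and among the values of listed genes under alternatives 527 kept their direction and 68 reversed. Under pseudocounts of 0.5 and 5, no filter on low values, the replicate block, a fit of the compared groups alone, rescaling to the median ratio, a constant prior variance and the left-out libraries, Fbln2 with basal S1P stayed lower than vehicle and than apical S1P in each. That is a description and no support for the difference, since Fbln2 was selected on these same values. The count of genes called for basal S1P against vehicle was 3, against 47 with the replicate block (32 lower and 15 higher), 0 with only the groups compared in the fit, and 518 without the 4 libraries unlike their number by Xist with the replicate block, an alternative chosen after seeing the data. For basal against apical S1P it was 3, against 83 with the replicate block, 1 with only the groups compared, 0 without those 4 libraries, 271 without them and with the replicate block, and 1 to 3 with any single library left out. It was 1 without S1P basal replicate 1 or 3 or S1P apical replicate 2 or 3. The numbers are not known to pair these libraries, and the cause of these shifts was not tested.

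Without the 4 libraries the log2 difference was -0.37 for Col1a1 with basal S1P, 0.24 for Pdgfra, 0.22 for Fbln1 and 0.59 for Fbln2 with apical S1P, and -0.70 for Postn with apical agonist. Without them and with the replicate block it was 0.50 for Postn with basal S1P, -0.38 for Col1a2, 0.37 for Pdgfra and 0.11 for Fbln2 with apical S1P, and 0.19 for Col1a1, 0.12 for Col1a2 and 0.14 for Postn for basal against apical S1P. A pseudocount of 0.5 gave -0.005 for Postn with apical agonist. Leaving out 1 library at a time turned further log2 differences. For basal S1P against vehicle, Col1a1 ran from -0.49 to 0.96, Postn from -0.83 to 0.56, Col1a2 from -0.79 to 0.42 and Col3a1 from -0.90 to 0.14. For apical S1P against vehicle, Postn ran from -0.40 to 1.75, Pdgfra from -0.38 to 0.15, Fbln2 from -0.27 to 0.29, Col1a2 from -0.13 to 0.87 and Col3a1 from -0.026 to 1.29. For apical S1P4 agonist against vehicle, Postn ran from -0.73 to 0.98, Col1a1 from -1.01 to 0.82, Col3a1 from -0.90 to 0.28 and Col1a2 from -0.87 to 0.38. For basal S1P4 agonist against vehicle, Col3a1 ran from -0.75 to 0.29, Fbln1 from -0.25 to 0.18, Fbln2 from -0.30 to 0.21, Postn from -1.43 to 0.22, Col1a1 from -1.15 to 0.99, Col1a2 from -1.22 to 0.18 and Pdgfra from -0.20 to 0.0068. For basal S1P against apical S1P, Col1a2 ran from -1.18 to 0.064 and Postn from -1.82 to 0.23.
The reads behind the values are not known, so no counting interval is given, and genes such as Dcn and Postn rest on few counts in many libraries.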
